A study of Mus musculus with 16 samples.

Results

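The interaction of the Dp16 duplication with the 5xFAD amyloid transgenes was measured in the hippocampus, gene by gene, as the effect of the duplication in mice with the transgenes less its effect in mice without them. It was computed on the log2 scale as 5xFAD-Dp16 minus 5xFAD, less Dp16 minus wild-type. A value of 0 means that the fold changes of both genotypes multiply in the cross, a positive value that the cross lies above that product, and a negative value that it lies below. All 16 of the 16 libraries of the study enter it, 4 for each genotype, and 16684 of the 55385 genes in the count table had enough counts to be tested. No gene departed from additivity at an adjusted p below 0.05.

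Polyadenylated RNA from the hippocampus of mice at 5 months of age was sequenced. The 5xFAD-Dp16 mice carry both alterations and were all male. The 5xFAD mice carry transgenes that include human APP with familial Alzheimer disease mutations, driven by the Thy1 promoter, which is active mainly in neurons. The Dp16 mice carry an extra copy of a segment of mouse chromosome 16 and the wild-type mice were C57BL/6J; 5xFAD, Dp16 and wild-type had 2 males and 2 females each. The model therefore included a term for sex, and the interaction assumes that the sex difference of the other 3 genotypes also holds in the cross, where there was no female. The labels do not state that each library is a separate mouse, and the p-values then describe the spread among libraries, which may be technical.

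The duplicated segment is orthologous to a large part of human chromosome 21 and holds App, the mouse amyloid precursor protein gene, together with a cluster of interferon and interleukin-10 receptor genes. In the 5xFAD hippocampus, amyloid plaques gather microglia that switch from homeostatic genes to a disease-associated programme of phagocytic, lysosomal and lipid-handling genes, and astrocytes around plaques raise Gfap. People with trisomy 21 carry an extra APP gene and develop amyloid pathology early, and the cross carries an extra mouse App beside the human transgenes.

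The libraries held 15838097 to 25037769 counts in genes, and pairs of libraries correlated at 0.9548 to 0.9895 over log2 CPM (gene counts scaled to a common library size with the trimmed mean of M-values). Ddx3y, a Y-linked gene, lay at 40.7 to 63.2 CPM in the 10 male libraries and at most at 0.0407 CPM in the 6 female ones. Markers of the hippocampal fields passed the filter on low counts in full, with 10 of 10 for CA1, 9 of 9 for CA3 and 12 of 12 for the dentate gyrus. Tissue content varied within genotypes. The mean log2 level of 14 choroid plexus genes relative to wild-type ran from -2.54 to 2.71, and wild-type replicate 4 was high in genes of midbrain, hypothalamus and striatum and low in CA1 genes, at -0.841 where replicates 1 to 3 were at 0.176 to 0.366. Thalamus genes were highest in 5xFAD replicate 4, at 1.67. In bulk tissue, fewer cells of a type and less RNA per cell cannot be told apart.

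Across the transcriptome, the cross showed no gene whose level departed detectably from the product of both effects. With edgeR's quasi-likelihood test and Benjamini-Hochberg adjustment, 0 of 16684 genes passed in either direction (percent called, 0), and the smallest adjusted p was 1. At an unadjusted p below 0.05 the edgeR test gave 332 genes, 1.99% of those tested, where 834 would be expected with no effect anywhere. With 2 tissue scores as covariates, described further on, that number was 1136 (6.81%). Of the 332, 187 were positive and 145 negative. At an unadjusted p below 0.01 there were 35, against 167 expected. limma on log2 CPM likewise passed 0 genes, with 312 below an unadjusted p of 0.05. The interaction had a median of -0.00 and quartiles of -0.13 and 0.15 on the log2 scale, and 8248 genes (49.4%) were positive. The count of 0 depended on the filter on low counts: with no filter, edgeR passed 128 of 30883 genes, 115 of them higher and 13 lower, and 98 of the 128 were among the 16684 genes that did not pass with the filter. Of those 128, 10 were among 14 choroid plexus genes, 11 among 22 midbrain and hypothalamus genes and 5 among 10 striatum genes, groups whose content differed between single libraries. For Ttr, a choroid plexus gene, the estimate was 1.633 with the filter and 1.635 without it. Its edgeR unadjusted p was 0.555 with the filter and 5.64e-14 without it. For Sgk1, a glucocorticoid-responsive gene, the estimates were -0.7451 and -0.7418, with edgeR unadjusted p of 0.0758 and 4.54e-05.

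How large a departure could have gone unseen differed with expression. The 95% limma interval of the interaction lay wholly within a 2-fold departure for 11438 genes (68.6%) and wholly within a 1.5-fold departure for 6287 (37.7%). Among the 9973 genes with a mean of at least 10 CPM, these shares were 94.3% and 61%. The median half-width of the interval was 0.548, so an estimate below about that size could not be told from 0 for a typical gene. These intervals are for single genes and are not adjusted for the number tested. After adjustment larger estimates did not pass either, among them 1.90 for Frem3 and -1.39 for Cfap100. The plot of the interaction against expression shows the spread narrowing as expression rises.

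**Figure D1:**
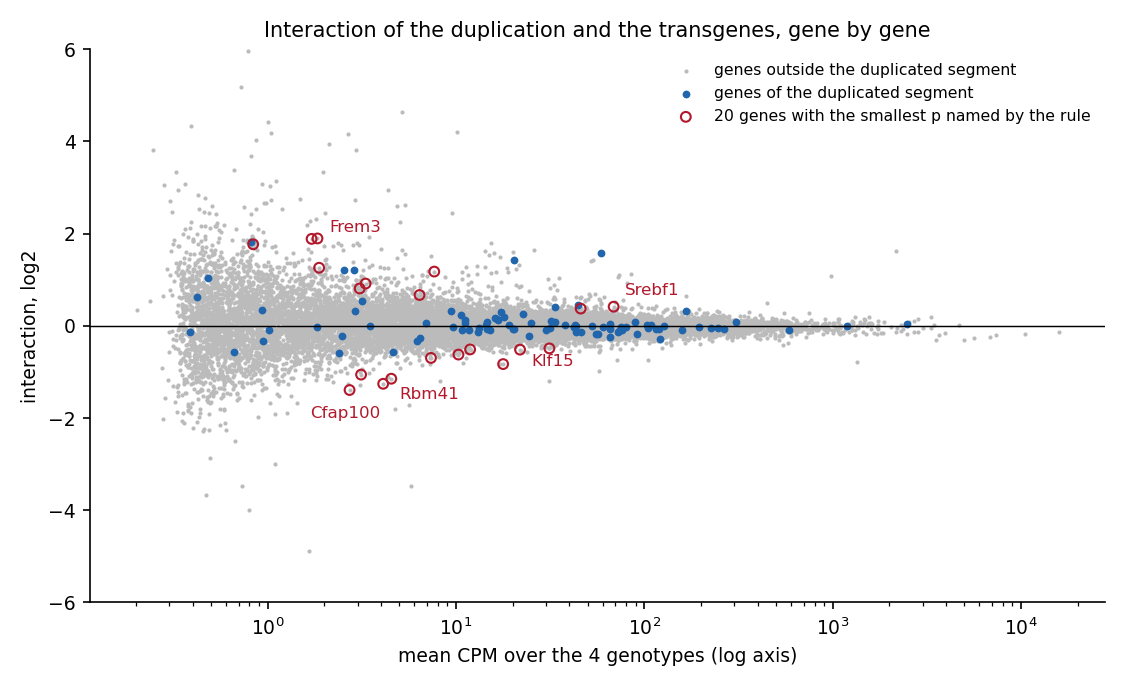
Interaction of each tested gene (vertical axis, log2) against its mean CPM over the 4 genotypes (horizontal log axis), with the 90 genes of the duplicated segment in blue and the 20 genes with the smallest p that the naming rule selects circled. The 2 genes beyond 6 on the log2 scale are not drawn, and no gene passed the test.

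App, the precursor of amyloid beta and a gene of the duplicated segment, had an interaction near 0. Its level was 3140, 3220, 2640 and 2850 CPM in the 4 5xFAD-Dp16 libraries, 1870, 1890, 1900 and 1650 CPM in 5xFAD, 3130, 3140, 3260 and 3020 CPM in Dp16, and 2260, 2010, 2150 and 1710 CPM in wild-type. Every library with the duplication lay above every library without it. The duplication effect on App was 0.66 with the transgenes (edgeR adjusted p 0.0574) and 0.63 without them (edgeR adjusted p 0.0327). The interaction was 0.03 ± 0.155 (log2, standard error; edgeR unadjusted p 0.852), with a limma interval of -0.30 to 0.35. Adding the effects on the CPM scale in place of the log2 scale gave an expected mean of 2930 CPM, against an observed mean of 2960 CPM.

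Thy1, whose promoter sequence drives the transgenes, was counted high in every library with transgenes. It lay at 2460, 3080, 1860 and 2070 CPM in 5xFAD-Dp16 and at 2390, 2080, 2420 and 1640 CPM in 5xFAD, against 809, 896, 929 and 796 CPM in Dp16 and 916, 761, 807 and 774 CPM in wild-type. The libraries with and without transgenes did not overlap. Whether those reads come from the transgenes or from the mouse gene cannot be told from a gene count. The interaction for Thy1 was 0.04 ± 0.229 (edgeR unadjusted p 0.865), and the cross with 5xFAD overlapped.

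The duplicated segment, chr16:75540514-97962622 of GRCm38, holds 147 protein-coding genes, of which 90 were tested. Their median duplication effect was 0.536 in the presence of the transgenes and 0.523 in their absence. The edgeR test called 8 segment genes in 5xFAD-Dp16 against 5xFAD, where 9 genes were called in all (percent called, 0.0539), and 13 in Dp16 against wild-type, where 14 were called in all (percent called, 0.0839). The called gene outside the segment was a (nonagouti), a coat-colour gene, in both comparisons. Libraries did not overlap, and the duplication was higher, for 36 segment genes in 5xFAD-Dp16 against 5xFAD and for 53 in Dp16 against wild-type, where 436 (2.61%) and 487 (2.92%) of all tested genes did not overlap in either direction. In both comparisons at once the segment had 30 such genes, out of 39 that were higher among the 53 genes (0.318%) that kept apart in the same direction.

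The interaction within the segment had a median of -0.02, with quartiles of -0.09 and 0.10, and 39 genes were positive and 51 negative. An unadjusted p below 0.05 was reached by 4932438H23Rik, with 1.21 ± 0.563 (edgeR unadjusted p 0.0472), and by no other segment gene. The limma interval lay within a 2-fold departure for 68 of the 90 and within a 1.5-fold departure for 40. The highest values belonged to Chodl at 1.81 ± 1.33, Clic6 at 1.59 ± 1.81 and Kcne2 at 1.44 ± 2.31, and the last 2 are chloride and potassium channel genes of the choroid plexus. Choroid plexus content differed between libraries, as described further on. The lowest belonged to Runx1, a transcription factor of blood and microglial cells.

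Dyrk1a and Rcan1, a kinase and a calcineurin inhibitor much studied in trisomy 21, had interactions near 0. Dyrk1a was at 147, 149, 123 and 135 CPM in 5xFAD-Dp16 and 94.9, 87.2, 97.7 and 88.9 CPM in 5xFAD, and at 151, 147, 163 and 142 CPM in Dp16 and 101, 94.3, 105 and 91.9 CPM in wild-type. Its interaction was -0.08 ± 0.122, with an interval of -0.34 to 0.18. Rcan1 had -0.02 ± 0.106, with an interval of -0.25 to 0.21. The duplication effect on Dyrk1a was 0.54 with the transgenes (edgeR adjusted p 0.0405) and 0.62 without them (edgeR adjusted p 0.00715). That on Rcan1 was 0.56 with the transgenes (edgeR adjusted p 0.0195) and 0.58 without them (edgeR adjusted p 0.00391).

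**Figure D2:**
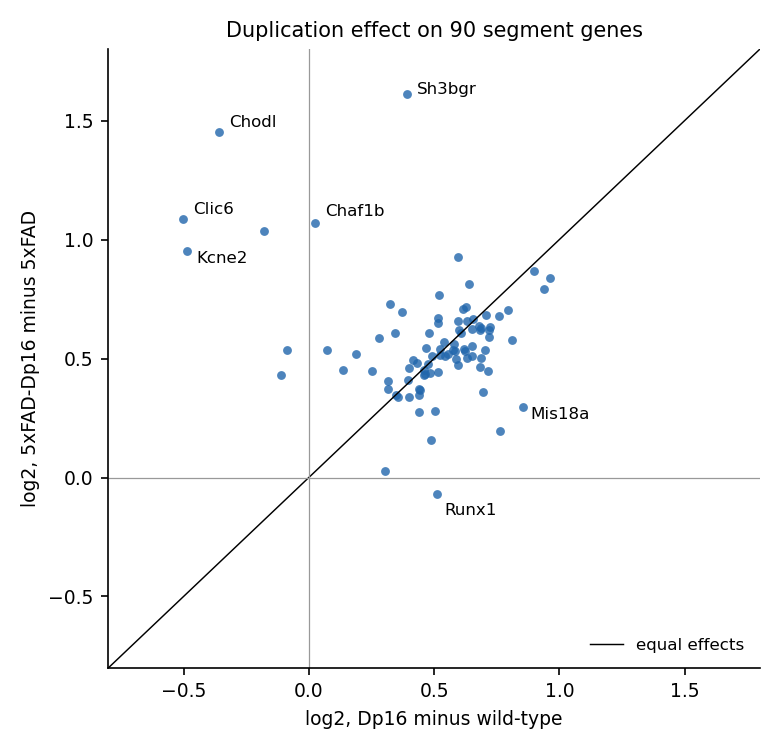
Effect of the duplication on the 90 tested segment genes, with 5xFAD-Dp16 minus 5xFAD on the vertical axis and Dp16 minus wild-type on the horizontal axis (both log2). Each point is 1 gene and the line marks equal effects. Most points lie around the medians of 0.536 and 0.523. The labelled genes are some of those far from the line, and others as far, such as 4932438H23Rik, are not labelled.

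The cytokine receptor genes of the segment had interactions between -0.13 and 0.25. Ifnar1, a chain of the type I interferon receptor, lay at 56.8, 54.2, 51.2 and 55.1 CPM in 5xFAD-Dp16, 35.7, 37.7, 33.6 and 38.2 CPM in 5xFAD, 57.1, 53.6, 58 and 62.6 CPM in Dp16, and 35.5, 34.7, 36.6 and 33.5 CPM in wild-type. Neither pair of genotypes overlapped. The interaction of Ifnar1 was -0.13 ± 0.113 (edgeR unadjusted p 0.265), with an interval of -0.37 to 0.11. Ifngr2, a chain of the interferon gamma receptor, had 0.09 ± 0.144, Ifnar2, the other type I chain, 0.06 ± 0.163, and Il10rb, shared by the interleukin-10 and interferon lambda receptors, 0.25 ± 0.244. Of the 12 tested genes in the list of these receptors and their signalling partners, 4 were positive and 8 negative, with a median of -0.09, against -0.00 over all genes.

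A pair of segment genes also responded to the transgenes. Samsn1, an adaptor of immune cells, was at 5.71, 5.97, 6.23 and 7 CPM in 5xFAD-Dp16, 4.92, 4.85, 4.3 and 6.21 CPM in 5xFAD, 1.91, 1.51, 1.24 and 1.3 CPM in Dp16, and 1.07, 1.4, 1.02 and 1.18 CPM in wild-type. All 8 libraries with transgenes lay above the 8 without. The limma interval of its interaction was -0.53 to 0.62. Runx1 was at 3.79, 4.44, 2.33 and 3.68 CPM in 5xFAD-Dp16, 3.51, 3.01, 4.25 and 2.81 CPM in 5xFAD, 1.46, 1.41, 2.17 and 1.18 CPM in Dp16, and 0.974, 0.786, 1.43 and 1.13 CPM in wild-type. The 5xFAD range lay within that of the cross, whose mean of 3.56 CPM stood against 4.9 CPM for multiplied effects and 3.87 CPM for added ones. The interaction of Runx1 was -0.58 ± 0.376 (edgeR unadjusted p 0.143), with an interval of -1.33 to 0.20.

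The interaction is equally the transgene effect in mice with the duplication less that in mice without it. edgeR called 141 genes in 5xFAD-Dp16 against Dp16 (percent called, 0.845; 138 or 0.827% higher, 3 or 0.018% lower) and 162 in 5xFAD against wild-type (percent called, 0.971; 161 or 0.965% higher, 1 or 0.00599% lower). These comparisons share no library, though they share the fitted sex term and spread. Of the 141 genes, 100 (70.9%) were also called in 5xFAD against wild-type, and those 100 are 61.7% of the 162. Among the 141, 140 had the same sign in 5xFAD against wild-type, the exception being Banp, and the median effect was 1.30 in 5xFAD-Dp16 against Dp16 and 1.16 in 5xFAD against wild-type. Among the 162, 161 had the same sign in the cross, the exception being Frem3, and the median was 1.12 in 5xFAD-Dp16 against Dp16 and 1.34 in 5xFAD against wild-type. In each case the comparison in which genes were called has the larger median, which the choice of genes shapes.

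Among the 20 genes that the naming rule selects for the smallest p, 10 were positive and 10 negative, and none passed after adjustment. Frem3, an extracellular matrix gene, had the smallest p of the positive ones. It lay at 1.87, 1.79, 2.23 and 2.47 CPM in 5xFAD-Dp16, 0.831, 0.724, 0.615 and 1.13 CPM in 5xFAD, 1.52, 2.03, 1.36 and 2.52 CPM in Dp16, and 1.9, 1.83, 2.18 and 4.39 CPM in wild-type. The 5xFAD libraries were below all others, and wild-type replicate 4 was the highest of all. Frem3 was the 1 gene called lower in 5xFAD against wild-type, with -1.60 (edgeR adjusted p 0.0227), and had 0.30 in 5xFAD-Dp16 against Dp16 (edgeR adjusted p 0.785). The interaction was 1.90 ± 0.458 (edgeR unadjusted p 0.000822, adjusted p 1), between 1.41 and 2.24 under the settings tried.

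Srebf1, a transcription factor of fatty acid and cholesterol synthesis, was at 73, 77.5, 69.5 and 72.8 CPM in 5xFAD-Dp16, 72.8, 76, 71.8 and 61.4 CPM in 5xFAD, 65.8, 57.5, 54.6 and 57.5 CPM in Dp16, and 73.9, 73.4, 65.1 and 75.7 CPM in wild-type. Dp16 stood below the cross without overlap, and only its replicate 1 reached into the wild-type range. Its interaction was 0.42 ± 0.117 (edgeR unadjusted p 0.00287, adjusted p 1). Other positive genes selected were Nkx2-2, Naip5, Rgl3, Snx22, Atp10d, Fhod1 and Ncoa4, between 0.37 for Ncoa4, a carrier for the turnover of ferritin, and 1.77 for Naip5. For Naip5, a sensor of bacterial flagellin in the inflammasome, levels in the cross ran from 1.24 to 2.28 CPM, against 0.592 to 1.47 CPM in 5xFAD, 0.141 to 0.506 CPM in Dp16 and 0.292 to 0.567 CPM in wild-type. The interaction of Naip5 was 1.77 ± 0.522 (edgeR unadjusted p 0.00388, adjusted p 1). Without the sex term the interaction of Naip5 was 1.21. Naip5 has close copies in the mouse genome, so its counts are uncertain.

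The negative genes selected were led by Cfap100, a gene of motile cilia, with -1.39 ± 0.316 and the smallest p of any tested gene (edgeR unadjusted p 0.000483, adjusted p 1). It lay at 2.72, 2.26, 2.79 and 2.79 CPM in 5xFAD-Dp16, 3.13, 2.34, 3.8 and 3.99 CPM in 5xFAD, 2.14, 2.92, 4.47 and 2.81 CPM in Dp16, and 2.04, 1.57, 2.72 and 1.04 CPM in wild-type. The genotypes overlapped in both duplication comparisons.

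Rbm41, an RNA-binding protein gene on the X chromosome, ran in opposite directions. It was at 4.36, 2.65, 4.1 and 3.63 CPM in 5xFAD-Dp16, below all 4 5xFAD libraries at 6.77, 6.52, 5.36 and 5.28 CPM. It was at 4.89, 4.62, 5.21 and 5.17 CPM in Dp16, above all 4 wild-type libraries at 2.92, 4.06, 4.05 and 2.9 CPM. The interaction was -1.15 ± 0.271 (edgeR unadjusted p 0.000685, adjusted p 1), and the observed mean of 3.68 CPM in the cross stood against 8.54 CPM for multiplied effects and 7.47 CPM for added ones. Genes that did not overlap and ran opposite ways numbered 2 of 16684 (percent called, 0.012), 1 in each sense (0.00599%). The other was C2cd5, a protein of insulin-stimulated glucose transporter trafficking, with 31.8, 32, 32.8 and 31.9 CPM in 5xFAD-Dp16, 27.7, 29.1, 28.8 and 31.3 CPM in 5xFAD, 26.1, 31, 27.7 and 29.6 CPM in Dp16, and 32.4, 31.4, 31.1 and 35.1 CPM in wild-type. C2cd5 was higher in the cross than in 5xFAD and lower in Dp16 than in wild-type. Its interaction was 0.30 ± 0.116 (edgeR unadjusted p 0.0189, adjusted p 1).

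Tlr7, the endosomal receptor for single-stranded RNA, passed the transgene test in mice without the duplication and missed it in mice with the duplication. It was at 5.04, 6.19, 3.8 and 4 CPM in 5xFAD-Dp16, 8.24, 5.51, 6.54 and 4.59 CPM in 5xFAD, 3.65, 4.24, 3.66 and 2.44 CPM in Dp16, and 2.24, 2.05, 1.78 and 1.68 CPM in wild-type. Dp16 stood above wild-type without overlap, while the cross overlapped both 5xFAD and Dp16. The transgene effect on Tlr7 was 0.42 in the cross against Dp16 (edgeR adjusted p 0.685) and 1.68 in 5xFAD against wild-type (edgeR adjusted p 0.000968). The difference between them, which is the interaction, was -1.26 ± 0.342 (edgeR unadjusted p 0.00215, adjusted p 1), so the contrast between the calls does not pass as a difference. The mean in the cross was 4.76 CPM, against 11.2 CPM for multiplied effects and 7.78 CPM for added ones. The other negative genes selected were Mettl17, Abca6, Eef1aknmt, Banp, Klf15, Prkab2 and Zfp420, between -1.06 and -0.49.

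**Figure D3:**
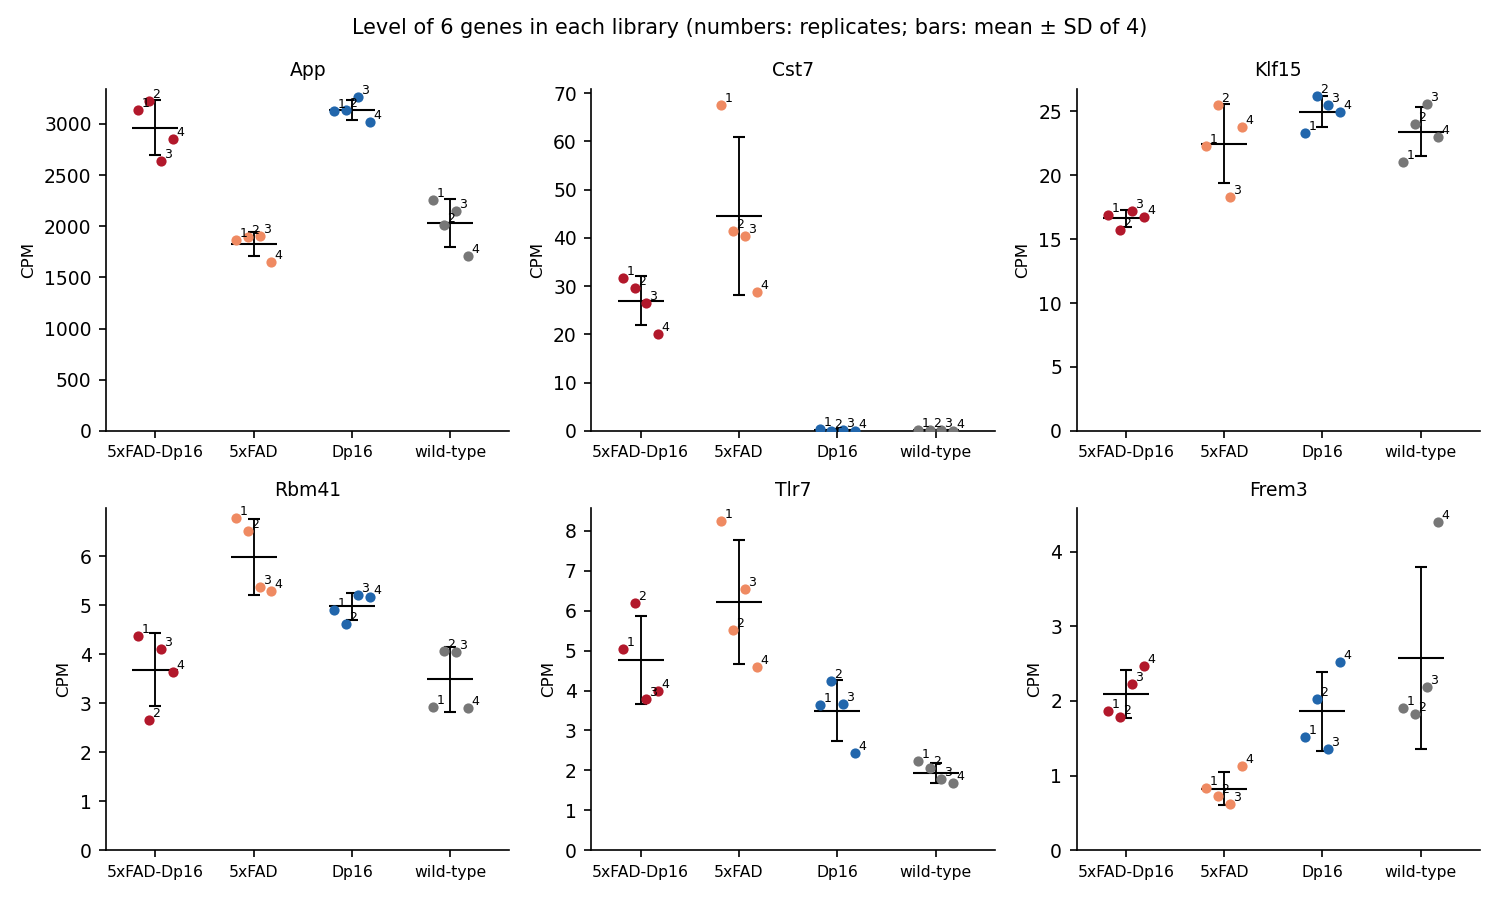
CPM of 6 genes in each library (vertical axes starting at 0), grouped by genotype, with replicate numbers beside the points and bars for mean ± SD of 4. App stands higher in both genotypes with the duplication, Cst7 in both with the transgenes, and the other 4 show the uneven patterns described in the text.

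Many microglial genes rose with the transgenes in both backgrounds, and their interactions lay on both sides of 0. Of 29 disease-associated microglia genes, edgeR called 14 in 5xFAD-Dp16 against Dp16, where 0.845% of all tested genes were called, and 15 in 5xFAD against wild-type, where 0.971% were. The median effect was 1.02 in 5xFAD-Dp16 against Dp16 and 1.05 in 5xFAD against wild-type. In the interaction 13 were positive and 16 negative, none passed, and the median was -0.03, which was 0.02 without 5xFAD replicate 1. The mean log2 level of the list relative to wild-type was 1.42, 1.28, 1.45 and 1.24 in 5xFAD-Dp16, 1.81, 1.6, 1.44 and 1.35 in 5xFAD, 0.159, -0.24, -0.0106 and 0.0663 in Dp16, and -0.241, 0.071, -0.00283 and 0.173 in wild-type. The cross overlapped 5xFAD.

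Cst7, an inhibitor of lysosomal cysteine proteases and a leading gene of that state, was at 31.8, 29.6, 26.6 and 20 CPM in 5xFAD-Dp16 and 67.5, 41.4, 40.5 and 28.7 CPM in 5xFAD, and at most at 0.393 CPM in Dp16 and 0.267 CPM in wild-type. Its interaction of -0.47 ± 0.881 (edgeR unadjusted p 0.6) rests on genotypes in which the gene was near 0. In males alone the interaction of Cst7 was 0.26. The 5xFAD libraries at 67.5 and 41.4 CPM, replicates 1 and 2, were female, and the cross had no female. Tyrobp, the signalling adaptor of Trem2, had the smallest p of the list. It was at 36.2, 34.1, 44.2 and 34.2 CPM in 5xFAD-Dp16, 70, 50.7, 44.4 and 57.3 CPM in 5xFAD, 10.5, 11.3, 9.8 and 12.1 CPM in Dp16, and 9.98, 11.1, 9.84 and 13.4 CPM in wild-type. All 4 cross libraries lay below all 4 5xFAD libraries, by a margin of 44.2 against 44.4 CPM, while Dp16 and wild-type overlapped. The interaction of Tyrobp was -0.45 ± 0.19 (edgeR unadjusted p 0.0298, adjusted p 1). Trem2, a lipid receptor of microglia, had -0.14 ± 0.222, and Clec7a, a pattern-recognition receptor, -0.44 ± 0.566. Spp1, osteopontin, had the highest value of the list, 1.17, at an edgeR unadjusted p of 0.336.

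Homeostatic microglia genes had a median transgene effect of 0.755 in 5xFAD-Dp16 against Dp16 and 0.706 in 5xFAD against wild-type, higher in both. The homeostatic microglia list had a median interaction of 0.06, which was -0.155 without 5xFAD replicate 4 and 0.243 in males alone. Its genes gave 10 positive and 8 negative interactions. Gpr34, a lysophospholipid receptor, had the smallest p of them, with 12.3, 16, 13.7 and 12.7 CPM in 5xFAD-Dp16 and 26.6, 22.2, 21.7 and 23.3 CPM in 5xFAD, and 6.41, 5.18, 8.06 and 7.57 CPM in Dp16 and 7.3, 6.68, 7.79 and 11.8 CPM in wild-type. The cross lay below 5xFAD without overlap. Its interaction was -0.39 ± 0.252 (edgeR unadjusted p 0.137). Of 17 tested complement genes 11 were positive and 6 negative, with a median of 0.11. Without 5xFAD replicate 4 the complement median was -0.187, with 5 positive and 12 negative, and it kept its sign in 24 of 31 settings. The 3 chains of C1q, the opening component of the classical pathway, had -0.20 ± 0.161 for C1qa, -0.12 ± 0.141 for C1qb and -0.26 ± 0.173 for C1qc. The chemokine and chemokine receptor list split 10 positive to 7 negative. Its median of 0.05 was -0.106 without 5xFAD replicate 4 and 0.298 in males alone.

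Lysosomal genes, which carry out the breakdown of engulfed material, split 15 to 15 with a median of -0.00. Their intervals lay within a 2-fold departure for all 30 tested members and within a 1.5-fold departure for 22. Hexa, a subunit of beta-hexosaminidase, was at 87.7, 82.5, 86.2 and 92.3 CPM in 5xFAD-Dp16, 117, 107, 89.4 and 88.1 CPM in 5xFAD, 68.1, 63.8, 58.3 and 57.8 CPM in Dp16, and 49.8, 54.5, 52.6 and 62.8 CPM in wild-type. Both pairs overlapped. The interaction of Hexa was -0.28 ± 0.13 (edgeR unadjusted p 0.0472, adjusted p 1). Antigen presentation genes gave 10 positive and 8 negative values with a median of 0.04, which was -0.0965 without the sex term. The smallest p belonged to H2-DMa, a chaperone of class II peptide loading, at 0.39 ± 0.176 (edgeR unadjusted p 0.042, adjusted p 1).

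The interferon response list is the set that lies downstream of the receptors of the segment. Of its 44 tested genes 23 were positive and 21 negative, with a median of 0.02 that was -0.168 without 5xFAD-Dp16 replicate 4. edgeR called 3 of them in 5xFAD-Dp16 against Dp16 (0.845% of all tested genes) and 5 in 5xFAD against wild-type (0.971% of all). It called 0 in both duplication comparisons, where 0.0539% of all tested genes were called with the transgenes and 0.0839% without them. Slfn2, a regulator of immune cell quiescence, had the smallest p, with 2.09, 3.67, 2.53 and 3.58 CPM in 5xFAD-Dp16, 3.9, 3.4, 2.74 and 4.68 CPM in 5xFAD, 1.63, 2.87, 2.36 and 3.78 CPM in Dp16, and 0.974, 1.88, 1.38 and 1.09 CPM in wild-type. The cross and 5xFAD overlapped, and Dp16 replicate 1 alone reached into the wild-type range. The interaction of Slfn2 was -1.26 ± 0.431 (edgeR unadjusted p 0.0102, adjusted p 1).

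Ifit3, an interferon-induced protein that limits viral replication, is shown as the member with a textbook promoter. It was at 10.7, 20.4, 10.8 and 24.8 CPM in 5xFAD-Dp16, 12.1, 18.4, 17.7 and 12.3 CPM in 5xFAD, 5.4, 7.07, 6.39 and 9.2 CPM in Dp16, and 5.5, 5.19, 8.11 and 9.96 CPM in wild-type. The transgenes separated the libraries and the duplication did not. Its interaction was 0.23 ± 0.429 (edgeR unadjusted p 0.606). The interferon-stimulated response element was searched as GAAA followed, 2 bases on, by a second GAAA, on both strands, in RefSeq promoters of GRCm38.p6, each of 300 bases. It was found in 19 of the 31 list genes in the table (61.3%) and in 1131 of all 32851 promoters (3.44%). The Ifit3 promoter, chr19:34583279-34583578 on the plus strand, holds 2 matches, given in capitals as they read on the reverse strand.
Ifit3: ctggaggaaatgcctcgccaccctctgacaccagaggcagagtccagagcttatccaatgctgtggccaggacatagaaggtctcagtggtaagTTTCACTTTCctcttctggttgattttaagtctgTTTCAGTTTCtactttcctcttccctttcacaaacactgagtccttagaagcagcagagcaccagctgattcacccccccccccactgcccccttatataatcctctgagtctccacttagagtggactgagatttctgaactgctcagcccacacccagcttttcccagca

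**Figure D4:**
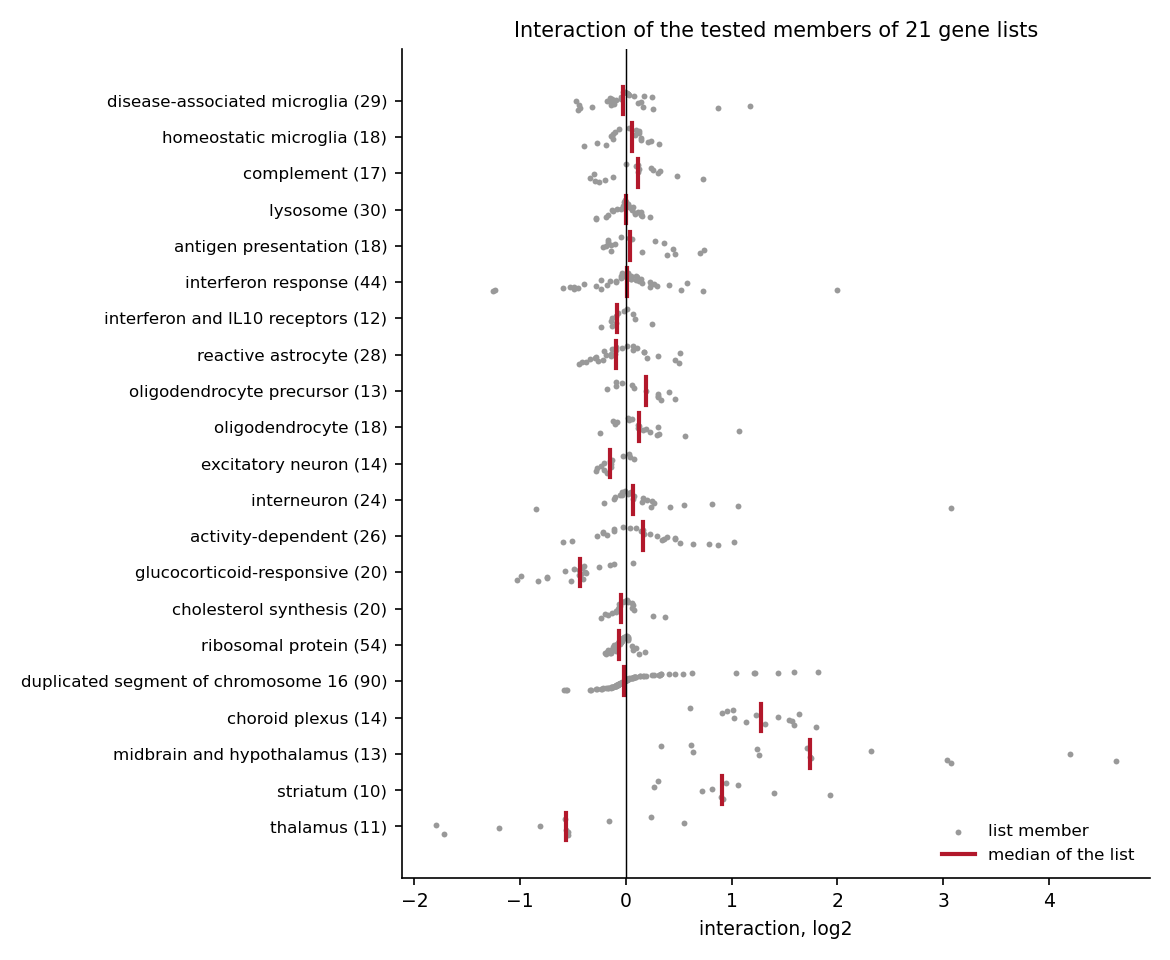
Interaction (horizontal axis, log2) of each tested member of 21 gene lists, with the number of members in brackets and the list median as a red bar. Most medians lie near 0, while those of the glucocorticoid-responsive and regional tissue lists lie apart from it.

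Astrocyte, oligodendrocyte and neuronal genes gave small medians. Reactive astrocyte genes split 11 positive to 17 negative with a median of -0.09, and Gfap, the intermediate filament of reactive astrocytes, had 1040, 1270, 973 and 911 CPM in 5xFAD-Dp16, 1490, 1290, 1080 and 841 CPM in 5xFAD, 479, 449, 496 and 416 CPM in Dp16, and 387, 463, 422 and 459 CPM in wild-type. The libraries with transgenes lay above those without, and the cross overlapped 5xFAD. The interaction of Gfap was -0.14 ± 0.207 (edgeR unadjusted p 0.512). Oligodendrocyte genes split 14 to 4 with a median of 0.12 that became -0.08 in males alone.

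Oligodendrocyte precursor genes split 9 positive to 4 negative with a median of 0.19. That median ran from 0.00809 without wild-type and 5xFAD replicates 4 together to 0.37 in males alone. Olig1 and Olig2, transcription factors of that lineage, lie in the duplicated segment. Olig1 was at 193, 190, 205 and 185 CPM in 5xFAD-Dp16, above 159, 162, 131 and 127 CPM in 5xFAD, and at 212, 176, 159 and 150 CPM in Dp16, overlapping 157, 150, 131 and 174 CPM in wild-type. Its interaction was 0.33 ± 0.158 (edgeR unadjusted p 0.0534), and that of Olig2 was 0.46 ± 0.236 (edgeR unadjusted p 0.0689).

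Excitatory neuron genes had 3 positive and 11 negative values with a median of -0.15, which was 0.33 in males alone and, for the excitatory neuron list, 0.215 without wild-type replicate 4. Of 24 interneuron genes 16 were positive, with a median of 0.07. Cort, the neuropeptide cortistatin of an interneuron class, had the smallest p, with 5.83, 5.12, 4.25 and 6.68 CPM in 5xFAD-Dp16, 8.05, 4.62, 4.81 and 5.72 CPM in 5xFAD, 7.76, 10.8, 9.86 and 8.99 CPM in Dp16, and 6.43, 5.98, 6.37 and 4.21 CPM in wild-type. Dp16 stood above wild-type and above the cross without overlap. The interaction of Cort was -0.85 ± 0.301 (edgeR unadjusted p 0.0122, adjusted p 1).

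Activity-dependent genes, transcribed within minutes of neuronal firing, had 17 positive and 9 negative values, with a median of 0.17 that ran from 0.03 without 5xFAD replicate 4 to 0.51 in males alone. Fos, a subunit of the transcription factor AP-1, was at 24.5, 17.3, 17 and 19.8 CPM in 5xFAD-Dp16, 27.9, 21.8, 17.8 and 18.5 CPM in 5xFAD, 16.2, 14.4, 11.3 and 18.6 CPM in Dp16, and 41.2, 20.1, 15.5 and 32.1 CPM in wild-type. Wild-type replicate 1 was the highest library. The interaction of Fos was 0.88 ± 0.374 (edgeR unadjusted p 0.033, adjusted p 1). Btg2, an antiproliferative early response gene, had 0.79 ± 0.391 (edgeR unadjusted p 0.0621), with 13.4, 10.3, 8 and 9.52 CPM in Dp16 below 31.7, 15.3, 13.2 and 19.1 CPM in wild-type except for 1 overlapping pair. The cAMP response element, TGACGTCA, is its own reverse complement. It was in promoters of 2 of the 21 list genes in the table (9.52%), Btg2 and Dusp1, and in 588 of 32851 promoters (1.79%). The Btg2 promoter, chr1:134079106-134079405 on the minus strand, carries it in capitals.
Btg2: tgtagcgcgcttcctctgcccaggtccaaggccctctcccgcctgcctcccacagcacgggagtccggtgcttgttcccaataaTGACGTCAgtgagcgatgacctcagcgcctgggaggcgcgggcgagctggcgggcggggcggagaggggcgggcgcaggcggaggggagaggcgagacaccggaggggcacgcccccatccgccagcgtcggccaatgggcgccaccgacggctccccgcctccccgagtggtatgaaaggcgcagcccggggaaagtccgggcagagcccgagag

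Glucocorticoid-responsive genes, which follow circulating corticosterone through the glucocorticoid receptor, had mostly negative interactions. Of 20 tested members 19 were negative, the exception being Lcn2, and the median was -0.43, against -0.00 over all genes. None passed the interaction test, and edgeR called 1 member, Klf15, lower in 5xFAD-Dp16 against Dp16. Of all tested genes, 0.845% were called in that comparison, 3 of them (0.018%) lower. The mean log2 level of the list relative to wild-type was -0.049, -0.103, -0.296 and -0.161 in 5xFAD-Dp16, -0.1, 0.167, -0.273 and 0.0178 in 5xFAD, 0.364, 0.426, 0.589 and 0.221 in Dp16, and -0.3, 0.141, 0.167 and -0.00749 in wild-type. Dp16 stood above wild-type and above the cross without overlap, while the cross and 5xFAD overlapped. The median was negative in all 31 settings tried, from -0.55 without 5xFAD replicate 3 to -0.27 without the 4 libraries high in midbrain and hypothalamus genes. The list was chosen with earlier results known and its genes move together, so this count is a description of these libraries.

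Klf15, a transcription factor induced by glucocorticoids, was at 16.9, 15.7, 17.2 and 16.7 CPM in 5xFAD-Dp16, 22.3, 25.5, 18.3 and 23.8 CPM in 5xFAD, 23.3, 26.2, 25.5 and 24.9 CPM in Dp16, and 21, 24, 25.6 and 23 CPM in wild-type. The cross lay below every other library. Klf15 fell in 5xFAD-Dp16 against Dp16, with -0.57 (edgeR adjusted p 0.0206), and its interaction was -0.52 ± 0.155 (edgeR unadjusted p 0.00436, adjusted p 1). Cdkn1a, the cell cycle inhibitor p21, had -0.83 ± 0.35 (edgeR unadjusted p 0.0314), with 12.8, 8.88, 8.91 and 12 CPM in 5xFAD-Dp16, 16.4, 24.5, 8.55 and 16.8 CPM in 5xFAD, 26.1, 24.4, 20.3 and 24.1 CPM in Dp16, and 10.5, 23, 20.6 and 17.3 CPM in wild-type. Hif3a, a hypoxia-inducible factor subunit, had -1.03 ± 0.476 (edgeR unadjusted p 0.047), with 2.21, 2.99, 2.03 and 1.37 CPM in 5xFAD-Dp16, 1.79, 3.62, 1.84 and 2.07 CPM in 5xFAD, 5.17, 6.12, 7.26 and 5.49 CPM in Dp16, and 1.9, 2.88, 5.34 and 2.99 CPM in wild-type. For both genes every Dp16 library lay above every cross library.

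Sgk1, a kinase that regulates ion transport, was at 88.6, 65.5, 79.5 and 93.3 CPM in 5xFAD-Dp16, 94.1, 113, 65.3 and 145 CPM in 5xFAD, 129, 129, 152 and 128 CPM in Dp16, and 44.2, 134, 117 and 101 CPM in wild-type. Dp16 was above the cross without overlap, while 134 CPM in wild-type replicate 2 reached into the Dp16 range. Its interaction was -0.75 ± 0.392 (edgeR unadjusted p 0.0758), the same size as that of Tsc22d3, an anti-inflammatory leucine zipper protein, at -0.75 ± 0.393. The palindromic glucocorticoid response element, searched as AGAACA followed, 3 bases on, by TGTTCT, was in the promoter of Sgk1 alone among the 18 list genes in the table (5.56%), and in 3 of 32851 promoters (0.00913%). The Sgk1 promoter is chr10:21993640-21993939 on the plus strand, with the element in capitals.
Sgk1: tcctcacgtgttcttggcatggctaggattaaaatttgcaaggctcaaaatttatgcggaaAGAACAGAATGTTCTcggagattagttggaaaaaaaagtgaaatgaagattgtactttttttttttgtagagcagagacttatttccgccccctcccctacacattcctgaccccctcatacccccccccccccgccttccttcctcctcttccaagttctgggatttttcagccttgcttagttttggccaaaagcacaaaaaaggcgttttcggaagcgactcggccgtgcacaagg

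**Figure D5:**
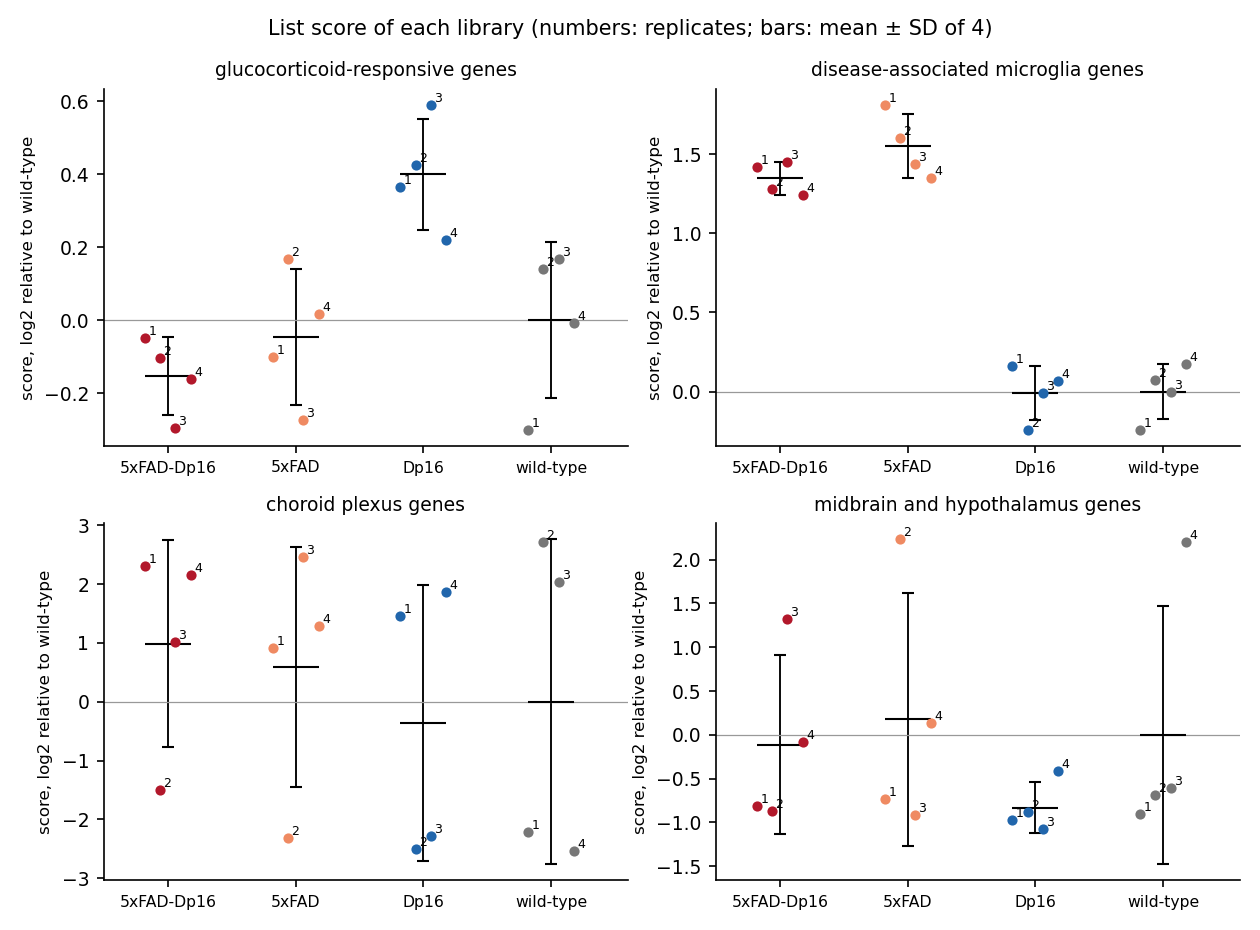
Mean log2 level relative to wild-type of 4 gene lists in each library, grouped by genotype, with replicate numbers and bars for mean ± SD of 4. Dp16 stands apart in the glucocorticoid-responsive panel, both genotypes with transgenes in the microglia panel, and single libraries within genotypes in the choroid plexus and midbrain and hypothalamus panels.

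Genes of several neighbouring brain regions had large list medians, and these moved with single libraries. The 9 tested neocortex genes did not, with 5 positive, 4 negative and a median of 0.00412. All 14 choroid plexus genes were positive, with a median of 1.28, and their mean log2 level was 2.3, -1.51, 1.01 and 2.16 in 5xFAD-Dp16, 0.906, -2.31, 2.46 and 1.29 in 5xFAD, 1.46, -2.51, -2.28 and 1.86 in Dp16, and -2.21, 2.71, 2.04 and -2.54 in wild-type. High and low libraries were found in every genotype. Ttr, the thyroid hormone carrier made by that tissue, lay between 13.1 and 5980 CPM within wild-type alone. Without wild-type replicate 2, the choroid plexus median was -0.31 with 3 of 14 positive.

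All 13 tested midbrain and hypothalamus genes were positive with a median of 1.74. It was 0.43 with 8 of 13 positive once wild-type replicate 4 was left out, and 3.07 without 5xFAD replicate 4. The highest list score was 2.2 in wild-type, 2.23 in 5xFAD and 1.32 in 5xFAD-Dp16, while Dp16 ran from -1.07 to -0.41. Wild-type replicate 4 held 58.3 CPM of Trh, thyrotropin-releasing hormone, against at most 1.07 CPM in wild-type replicates 1 to 3 and 0.225 to 7.12 CPM in the rest. The 10 striatum genes had a median of 0.91 and, without the same library, -0.04 with 4 of 10 positive. The 11 thalamus genes had -0.56 and, without 5xFAD replicate 4, -0.04. With the midbrain and choroid plexus scores as covariates, edgeR again passed 0 genes. At an unadjusted p below 0.05 there were then 1136 (6.81%), against 332 (1.99%) without the covariates. The number expected with no effect anywhere, 834, lies between them.

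Housekeeping groups lay near 0. Of 54 ribosomal protein genes 12 were positive and 42 negative, with a median of -0.06 that became 0.23 without 5xFAD replicate 4. Cholesterol synthesis genes split 8 positive to 12 negative, with a median of -0.04 and intervals within a 2-fold departure for all 20, although Srebf1, outside that list, was among the 20 genes with the smallest p. Genes orthologous to human chromosome 21 but outside the duplicated segment split 24 positive to 16 negative among 40 tested, with a median of 0.05.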

How the data were processed

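Hippocampal polyadenylated RNA was measured in 16 libraries, grouped by the genotype in the labels. Per the submitters' processing notes, the authors used bcl2fastq, FastQC 0.11.5, HISAT2 2.1.0, SAMtools 1.5 and HTSeq 0.6.1 with the mouse build GRCm38. The deposited table of raw counts per gene was the input, and the authors' deposited RPKM table was not used. The sources used here do not give the strand setting of the counting, which leaves overlapping and antisense genes uncertain, along with near-identical families such as the H2, Ifit and Naip genes, C4b and ribosomal proteins.

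Genes were kept by edgeR's filterByExpr on the genotypes. edgeR 4.0.16 in R 4.3.3 fitted a robust quasi-likelihood model with a term for each genotype and 1 for sex to all 16 libraries, and p-values were Benjamini-Hochberg adjusted over all 16684 genes at a threshold of 0.05. The 95% intervals were computed by limma 3.58.1 from log2 CPM (prior count 2). CPM values were scaled by the trimmed mean of M-values, and an SE is that of the log2 interaction. A list score is the mean log2 CPM of its tested members relative to the wild-type mean. DESeq2 1.42.0 and limma voom were alternatives. The scripts were tested on simulated data. Sampling depth limits genes of low count most.

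The genes named are App and Thy1, the 10 positive and 10 negative with the smallest interaction p that reached 1 CPM in a group mean, up to 3 members of each list with the smallest p, Ifnar1, Ifnar2, Ifngr2, Il10rb, Samsn1, Runx1, a check of sex, and genes whose groups do not overlap in opposite directions. Cst7, Trem2, Clec7a, Spp1, Gfap, Sgk1, Tsc22d3, Ttr, Dyrk1a, Rcan1, Ifit3, C1qb, Lcn2, Dusp1, Chodl, Clic6, Kcne2, Rbm12 and a were chosen after their values were seen, as were the glucocorticoid response element and 1 added alternative. The members and lists were chosen with earlier results of these data known. Some genes that this rule selects are not reported here. Promoter sequences are RefSeq's, build GRCm38.p6. A motif share of a list counts genes with the motif in any of their promoters. The share of all promoters counts single promoters, so the shares differ in unit.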

Additional observations from a re-analysis of the deposited data

Results flagged for a closer look

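With 96 genes and lists examined in 4 genotypes each, 384 groups of 4 libraries were checked for 1 library far from the other 3, and 20 were found. Chance alone marks about 1 in 20 groups. Wild-type replicate 4 stood apart in 4 list scores (mean log2 level relative to wild-type): 2.2 for midbrain and hypothalamus, where the others were at -0.907 to -0.604, 1.49 for striatum against -0.56 to -0.458, -0.841 for CA1 against 0.176 to 0.366, and -0.668 for CA3 against 0.218 to 0.225. In the same library Eef1aknmt was at 9.37 CPM against 11 to 11.3 CPM and Cort at 4.21 CPM against 5.98 to 6.43 CPM. These bear on the wild-type side of the interaction.

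In 5xFAD replicate 4 the ribosomal protein score was 0.776, where the other 5xFAD libraries were at 0.0403 to 0.139, and App was at 1650 CPM against 1870 to 1900 CPM. In wild-type replicate 1 Il10rb was at 5.6 CPM against 8.34 to 8.64 CPM, Slc2a1 at 93.9 CPM against 135 to 140 CPM, and the heat shock and unfolded protein score at -0.134 against 0.0324 to 0.0556. Mettl17 was at 5.15 CPM in wild-type replicate 2, against 6.2 to 6.32 CPM in the other 3.

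In 5xFAD-Dp16 replicate 2 the score of the duplicated segment was 0.478, where the other 3 cross libraries were at 0.703 to 0.708, and it stayed above all 5xFAD libraries. The same library had Cfap100 at 2.26 CPM against 2.72 to 2.79 CPM and Mettl17 at 5.8 CPM against 7.57 to 7.9 CPM. In 5xFAD-Dp16 replicate 1 the App processing score was 0.0973, against -0.0108 to 0.00568. Among Dp16 libraries, replicate 2 had Ifngr2 at 111 CPM against 104 to 105 CPM and a reactive astrocyte score of 0.00609 against 0.109 to 0.129. Dp16 replicate 3 had Sgk1 at 152 CPM against 128 to 129 CPM and a T cell and natural killer score of -0.729 against -0.0805 to 0.0172.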

How the results depend on the processing

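Under 30 of the 31 alternatives the edgeR, limma or DESeq2 fit passed 0 genes, with 271 to 1136 at an unadjusted p below 0.05. The exception had no low-count filter and passed 128 of 30883 genes. These held 2 of 20 glucocorticoid-responsive genes (Sgk1 and Tsc22d3) and 1 of 26 activity-dependent genes (Fos). The cause was not tested. Leaving out each library in turn gave 0 calls each time. The interval of the interaction per gene lay within a 2-fold departure for 68.6% of genes, a share that ran from 53.7% in males alone to 71.8% with the ribosomal protein score as a covariate, and from 62.4% to 67.7% with a library left out. No value reversed where it had passed a test. Replicate numbers were not used to pair libraries: correlations of same-numbered libraries ran from -0.354 to 0.354, 9 of 24 over 0.1, and 3 of 16 libraries correlated best with their own number. With the replicate block 0 genes passed, with 396 at an unadjusted p below 0.05. Scaling moved the median of all genes to at most 0.02 on the log2 scale. One alternative, leaving out wild-type and 5xFAD replicates 4 together, was added after seeing the data. Males alone leave 2 libraries in 3 genotypes, and genes of few counts have the widest intervals.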

Other observations

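Further groups were measured beside those of the report, and no member passed the interaction test in any of them. Presynaptic genes gave 6 positive and 16 negative interactions with a median of -0.08, and postsynaptic genes 4 positive and 16 negative with -0.05. Both medians were positive in males alone, at 0.24 for the presynaptic and 0.36 for the postsynaptic list, and without wild-type replicate 4, at 0.0915 for the presynaptic and 0.213 for the postsynaptic list. Nuclear genes of the respiratory chain split 14 positive to 20 negative with a median of -0.03 that was 0.208 without 5xFAD replicate 4, and the 13 mitochondrial ones 5 to 8 with -0.17. Genes of App processing by secretases split 9 positive to 5 negative with a median of 0.03 that was -0.05 without 5xFAD replicate 4, and 13 of their 14 intervals lay within a 1.5-fold departure. Heat shock and unfolded protein genes split 12 to 12.

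Vessel genes gave 8 positive and 6 negative values in the endothelial list, with a median of 0.03, and 6 and 7 in the mural and fibroblast list, with -0.00 that was 0.217 without 5xFAD replicate 2. Slc2a1, the glucose transporter of the blood-brain barrier, was at 113, 102, 116 and 108 CPM in 5xFAD-Dp16, 113, 133, 81.1 and 116 CPM in 5xFAD, 172, 159, 194 and 161 CPM in Dp16, and 93.9, 135, 135 and 140 CPM in wild-type. Dp16 stood above every other library. Its interaction was -0.38 ± 0.199 (edgeR unadjusted p 0.078, adjusted p 1). All 9 blood genes were negative, with a median of -0.37 that was 0.295 without the 4 libraries high in midbrain and hypothalamus genes. The 4 tested of 14 T cell and natural killer genes had a median of 0.89, which was 0.0742 over the 3 left by a stricter low-count filter.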
